A study of Mus musculus with 6 samples.

Results

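The genes described here encode the aminoacyl-tRNA synthetases, the enzymes that join each amino acid to its tRNA. They were measured by RNA sequencing in intestine of 5-month-old mice of strain 129, in 3 libraries from Apc min/+;Sirt7KO mice (knockout, Apc min/+ and Sirt7 -/-) and 3 libraries from APC min/+ mice (control). Members were the rows of the deposited table whose gene symbol was among 38 fixed symbols. Of these symbols 37 were found, out of 20312 rows, and the remaining one, Mars1, is a newer symbol of the gene listed as Mars. By the known site of the enzyme, 21 members were cytosolic and 16 mitochondrial. Apc min/+ carries a truncating allele of a Wnt pathway inhibitor and is shared by both groups. By their labels the groups differed in Sirt7, which encodes a nuclear sirtuin deacylase. Markers of several cell types also differed between them, so a change from Sirt7 loss and one from tissue content cannot be told apart. The labels do not tie a library to an animal, do not name the part of the intestine and do not say whether it held tumour. What a p-value measures here is the variation among libraries, which may be technical.

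Cytosolic synthetases supply charged tRNA to the ribosomes of the cytosol and endoplasmic reticulum, and several of them sit together in the multi-tRNA synthetase complex. Mitochondrial synthetases are nuclear-encoded, are imported into the matrix and serve the few proteins that mitochondria make themselves. Most amino acids have a separate gene for each compartment, whose symbol ends in 2 for the mitochondrial enzyme. Gars and Kars each make an enzyme for both compartments and were counted as cytosolic. Tarsl2, a second threonyl-tRNA synthetase outside mitochondria, was also counted as cytosolic although its symbol ends in 2. When tRNAs lack their amino acid, the kinase Gcn2 is activated and translation of the transcription factor Atf4 increases, and many cytosolic synthetase genes are known Atf4 targets.

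Values are normalised reads, that is the read count of a gene divided by 1 size factor per library. Library depth was 24987313 to 27661396 recovered reads in knockout and 28123962 to 29603348 in control. Sirt7 stood at 240.4, 224 and 219 normalised reads in the knockout libraries and at 2157, 2118 and 2244 in the control libraries, so 10.5% remained. With 3 libraries a group, the two-sided exact permutation p of 0.1 is the lowest that can be reached. Every member had at least 75 reads in every library, and all 37 passed the filter on low values and were tested. In a bulk sample, fewer cells of a type and less RNA per cell cannot be told apart.

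Most synthetase genes were modestly higher in knockout, in both compartments alike. Of the 21 cytosolic genes 15 rose, 1 fell and 5 did not pass (limma adjusted p under 0.05 over 16600 tested genes). Of the 16 mitochondrial genes 11 rose, 0 fell and 5 did not pass. Over all tested genes 31.6% were called higher and 30.9% lower (62.5% in either direction), against 70.3% of members higher and 2.70% lower. The members called in either direction, 27 of 37, were close to the share of all genes, and 26 of them lay on the higher side. The knockout libraries lay wholly above the control libraries in 29 members and wholly below in 1, and overlapped with them in 7, where 33.5% of all tested genes lay wholly above, 33.1% wholly below and 66.5% did not overlap. With quantile normalization in place of size factors, 15 cytosolic genes were higher and 0 lower, while 6 mitochondrial genes were higher and 2 lower. In the authors' deposited table, 15 cytosolic members were higher and 1 lower at an adjusted p under 0.05, and 10 mitochondrial members were higher and 0 lower, where the background of that table was 24.9% higher and 24.3% lower.

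The size of the change did not separate the compartments. The median log2 fold change of knockout over control was 0.39 for the cytosolic genes and 0.40 for the mitochondrial genes, a difference of -0.0054 with no test, against a median of 0.0097 over all tested genes. The summed cytosolic signal was 43792, 44158 and 44533 normalised reads in the knockout libraries and 36621, 37591 and 36221 in the control libraries. Without Lars2, which is described below on its own, the mitochondrial sum was 8553, 8450.3 and 8483 in knockout and 7047, 7113 and 6883 in control. Both sums were higher in every knockout library than in any control library. Within a library, the mean log2(value + 1) of the cytosolic genes exceeded that of the mitochondrial genes without Lars2 by 1.81, 1.88 and 1.87 in knockout and by 1.84, 1.83 and 1.87 in control, and these ranges overlapped. Under quantile normalization the cytosolic median was higher than the mitochondrial one by 0.15.

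**Figure D1:**
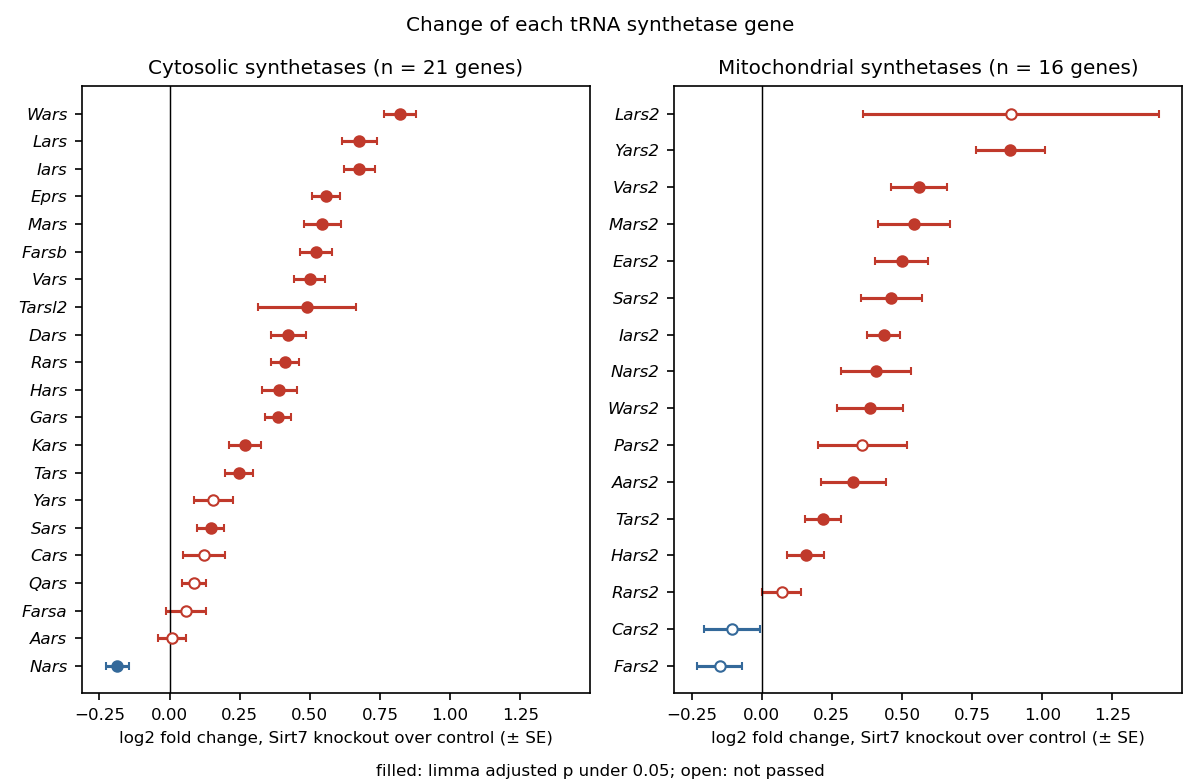
Log2 fold change of each synthetase gene, Sirt7 knockout over control, with SE from limma, for 21 cytosolic genes (left) and 16 mitochondrial genes (right). Filled points passed at an adjusted p under 0.05. Of the filled points, Nars is the one left of 0, and the widest bar belongs to Lars2.

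The promoters of the cytosolic genes more often held the core of an amino acid response element than those of the mitochondrial genes, a difference that was not tested. RefSeq promoter windows (GRCm38.p6, 250 bases before to 50 after the start) were used for 27 members, 13 cytosolic and 14 mitochondrial. No window was used for Aars, Cars, Hars, Hars2, Lars, Nars, Pars2, Rars, Vars and Wars. The core of the C/EBP-ATF response element, the element bound by Atf4 with its C/EBP partners, was searched as TGATGNAA on both strands, where N is any base. It was present in 4 of 13 cytosolic windows and in 0 of 14 mitochondrial windows, against 3.97% of all 32851 windows. Only 1 window per member was counted, and any further window of a member was left out of the member counts. For each of these 4 genes 30 bases around the match follow, 5′ to 3′ on the gene's own strand with the match in capitals, because they let the element be set beside the change of each gene.
Gars: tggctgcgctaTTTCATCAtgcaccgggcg
Iars: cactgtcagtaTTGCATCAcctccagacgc
Tars: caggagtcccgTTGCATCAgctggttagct
Yars: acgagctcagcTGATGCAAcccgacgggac
Yars holds the element as searched, and the other 3 hold its reverse complement. The stretches lie at chr6:55037960-55037989 (plus strand), chr13:49682126-49682155 (plus), chr15:11399655-11399684 (minus) and chr4:129189895-129189924 (plus), in the order listed. The match began 30 and 15 bases before the RefSeq start in Gars and Tars, and at base 8 and base 4 of the transcript in Iars and Yars. In Iars, Tars and Yars a GENCODE transcript starts further upstream than the RefSeq start used here. Of the 4 genes, Gars, Iars and Tars rose, and Yars did not pass. Among cytosolic windows, 3 of 10 genes that rose held the element and 1 of 3 that did not pass.

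The E-box CACGTG, a palindrome bound by Myc and related factors, stood in 3 of 13 cytosolic windows (Farsb, Iars and Tars) and in 1 of 14 mitochondrial windows (Ears2), against 7.15% of all windows. Iars and Tars thus held both the E-box and the response element, which do not overlap in letters. All 4 genes with an E-box rose, as did 20 of all 27 genes with a window. A match describes the letters in the window and is not evidence of binding.

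Of the 8 synthetases of the multi-tRNA synthetase complex 7 rose, 0 fell and 1, Qars, did not pass, with a median log2 fold change of 0.48. Of the 13 cytosolic genes outside the complex 8 rose, 1 fell and 4 did not pass, with a median of 0.25. The difference between these medians was not tested. Of all tested genes 31.6% were called higher and 30.9% lower. Under quantile normalization all 8 complex members were called higher, with a median of 0.49, and 7 of the 13 others.

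Eprs, whose single protein charges both glutamate and proline tRNA, stood at 2686, 2596 and 2534 normalised reads in knockout and at 1729, 1803 and 1775 in control (log2 fold change 0.56 ± 0.05 SE, limma adjusted p = 1.02e-09). Iars, the isoleucine enzyme (chromosome 13, 49682100 to 49734267, plus strand), stood at 1878, 1986 and 1983 in knockout and at 1247, 1255 and 1158 in control (0.68 ± 0.06, limma adjusted p = 3.18e-10). Lars, the leucine enzyme, which is also known as a leucine sensor for mTORC1, stood at 1333, 1238 and 1319 in knockout and at 787, 803 and 843 in control (0.68 ± 0.06, limma adjusted p = 2.27e-09). In all 3 genes the lowest knockout library lay well above the highest control library. Mars, the methionine enzyme, which also charges the initiator tRNA, stood at 1020.3, 1038 and 1017 in knockout and at 691, 720.3 and 696 in control (1.46-fold, limma adjusted p = 1.29e-07). Dars, the aspartate enzyme, stood at 1474, 1675 and 1478 in knockout and at 1117, 1139 and 1188 in control (1.34-fold, limma adjusted p = 2.52e-06). In both genes knockout library 2 was the highest library, and no knockout library reached down to the controls.

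Rars, the arginine enzyme, stood at 2920.3, 3089.7 and 2984 normalised reads in knockout and at 2229.9, 2384 and 2154 in control (1.33-fold, limma adjusted p = 1.84e-07). Kars, the lysine enzyme, which serves mitochondria as well, stood at 2287, 2126 and 2234 in knockout and at 1996, 1807 and 1722 in control (1.20-fold, limma adjusted p = 0.00026). The groups did not overlap in either gene, and Kars had the smallest rise of the complex members that passed. Qars, the glutamine enzyme, stood at 4579, 4714 and 4837 in knockout and at 4381, 4484 and 4436 in control. Its libraries did not overlap either, but the difference of 0.09 did not pass (limma adjusted p = 0.076). With quantile normalization it was 0.27 and passed (limma adjusted p = 6.95e-06), as it did with TMM scaling and without knockout library 1.

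Among the cytosolic genes outside the complex, Wars, the tryptophan enzyme, had the largest fold change. It lies on chromosome 12 (108860030 to 108894174, minus strand) and stood at 1985, 2078 and 2111 normalised reads in knockout and at 1098, 1198 and 1197 in control (log2 fold change 0.82 ± 0.06, limma adjusted p = 1.23e-11). Vars, the valine enzyme, stood at 2582, 2259.8 and 2498 in knockout and at 1709, 1776 and 1701 in control (1.41-fold, limma adjusted p = 3.63e-08). In both genes the groups lay far apart relative to their spread.

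Hars, the histidine enzyme, stood at 1226, 1304 and 1214 normalised reads in knockout and at 1001, 896 and 958 in control (1.31-fold, limma adjusted p = 1.07e-05). Gars, the glycine enzyme of both compartments, stood at 2792, 2819 and 2801 in knockout and at 2128, 2225 and 2086 in control (1.31-fold, limma adjusted p = 2.22e-07). Its knockout libraries were nearly equal, and the control libraries lay wholly below them. Tars, the threonine enzyme, stood at 2303, 2313 and 2425 in knockout and at 2050.3, 1986 and 1901 in control (1.19-fold, limma adjusted p = 0.00018). Sars, the serine enzyme, stood at 2345, 2416 and 2356 in knockout and at 2141, 2189 and 2098 in control (1.11-fold, limma adjusted p = 0.010), the smallest rise among the cytosolic genes that passed. Tarsl2 stood at 123, 113 and 114 in knockout and at 92.9, 80.2 and 76.5 in control (0.49 ± 0.17, limma adjusted p = 0.018), but did not pass under quantile normalization (limma adjusted p = 0.13), without knockout library 1 or without control library 3.

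The 2 subunits of the cytosolic phenylalanine enzyme did not move alike. Farsb, the beta subunit, stood at 1786, 1880 and 1934 normalised reads in knockout and at 1328, 1346 and 1230 in control (log2 fold change 0.52 ± 0.06, limma adjusted p = 3.23e-08). Farsa, the catalytic alpha subunit, stood at 912, 882 and 978 in knockout and at 821, 965 and 879 in control, and its libraries overlapped (0.06 ± 0.07, limma adjusted p = 0.49). The difference between the subunits was not tested. Farsa turned to -0.02 under quantile normalization.

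Nars, the asparagine enzyme, was the member that fell. It stood at 5716, 5616 and 5612 normalised reads in knockout and at 6373, 6684 and 6226 in control (log2 fold change -0.19 ± 0.04, limma adjusted p = 0.00041). All 3 knockout libraries lay below all 3 control libraries. This call depended on the scaling, since under quantile normalization the difference was 0.06 and did not pass (limma adjusted p = 0.18). Aars, the alanine enzyme, stood at 2206, 2260 and 2416 in knockout and at 2237, 2298 and 2294 in control, so the groups overlapped (0.01 ± 0.05, limma adjusted p = 0.87). Cars, the cysteine enzyme, stood at 783, 851 and 837 in knockout and at 681, 821 and 773 in control and overlapped as well (0.12 ± 0.08, limma adjusted p = 0.16). Yars, the tyrosine enzyme, was close to the threshold. It stood at 855, 905 and 852 in knockout and at 784, 733 and 829.9 in control, without overlap (0.16 ± 0.07, limma adjusted p = 0.056). Yars passed with TMM scaling, with edgeR, with the filter at 50 and without control library 3.

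**Figure D2:**
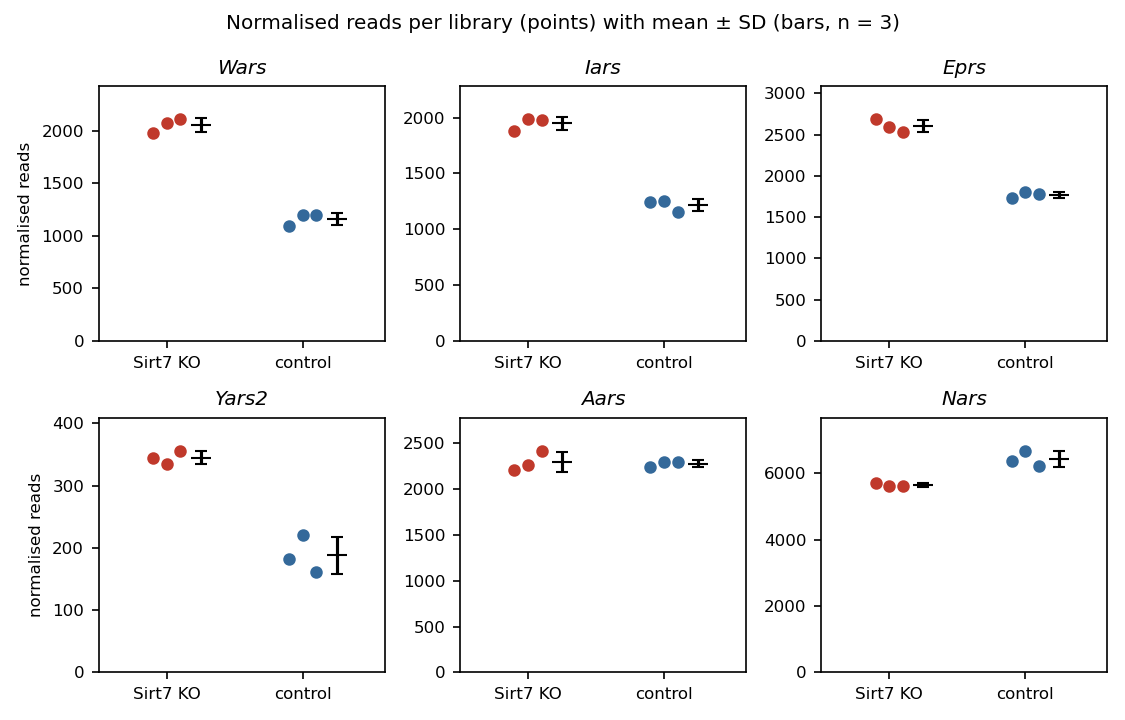
Normalised reads of 6 synthetase genes in each library, knockout left of control, with mean ± SD over 3 libraries. Wars, Iars, Eprs and Yars2 are higher in every knockout library, Aars overlaps between the groups, and Nars is lower in every knockout library.

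Among the mitochondrial genes, Yars2, the tyrosine enzyme of the matrix, rose most of those that passed. It lies on chromosome 16 (16302965 to 16309640, plus strand) and stood at 344, 335 and 356 normalised reads in knockout and at 182, 220.2 and 161 in control (log2 fold change 0.89 ± 0.12, limma adjusted p = 1.37e-06). Vars2, for valine, stood at 530.4, 432 and 479 in knockout and at 299, 342 and 333 in control (0.56 ± 0.10, limma adjusted p = 3.62e-05). Mars2, for methionine, stood at 240.4, 214 and 240.4 in knockout and at 164, 157 and 154 in control (0.54 ± 0.13, limma adjusted p = 0.00076). In these 3 genes the groups did not overlap, and each also passed under quantile normalization, at 0.70, 0.39 and 0.35. Ears2, for glutamate, stood at 705, 683 and 638 in knockout and at 522, 517 and 402 in control (1.41-fold, limma adjusted p = 7.84e-05). Sars2, for serine, stood at 301, 319 and 336 in knockout and at 216, 237 and 239.7 in control (1.38-fold, limma adjusted p = 0.00085). Iars2, for isoleucine, stood at 1482, 1463 and 1547 in knockout and at 1054, 1124 and 1145 in control (1.35-fold, limma adjusted p = 7.86e-07). These 3 genes did not overlap between the groups and passed under quantile normalization too.

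The remaining mitochondrial rises passed with size factors but not under quantile normalization. Nars2, for asparagine, stood at 367, 312 and 281 normalised reads in knockout and at 253, 263 and 206 in control (1.33-fold, limma adjusted p = 0.0066), and lost its call without knockout library 1. Wars2, for tryptophan, stood at 296, 291 and 289 in knockout and at 237, 243 and 193 in control (1.31-fold, limma adjusted p = 0.0066). In both genes control library 3 was the lowest. Aars2, for alanine, stood at 339, 280.3 and 296 in knockout and at 244, 223 and 261 in control (1.25-fold, limma adjusted p = 0.017), and lost its call without knockout library 1 and without control library 2. Tars2, for threonine, stood at 955, 1048 and 1057 in knockout and at 895, 869 and 864 in control (1.16-fold, limma adjusted p = 0.0058).

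Hars2, for histidine, was the closest to the threshold of those called. It stood at 1009, 958 and 961 normalised reads in knockout and at 932, 842 and 855 in control (1.11-fold, limma adjusted p = 0.043). It lost its call without any filter, with DESeq2 and when any library other than control library 1 was left out. Pars2, for proline, stood at 151, 124 and 140.2 in knockout and at 108, 102 and 113 in control, a difference that did not pass (0.36 ± 0.16, limma adjusted p = 0.054) and passed with TMM scaling, with edgeR and without knockout library 2. Rars2, for arginine, stood at 849, 880.3 and 863 in knockout and at 864, 857 and 752 in control, and the groups overlapped (0.07 ± 0.07, limma adjusted p = 0.40).

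Fars2 and Cars2 were the mitochondrial members with a negative difference. Fars2, which charges phenylalanine as a single protein, stood at 592, 675 and 567 normalised reads in knockout and at 684, 647 and 698 in control (log2 fold change -0.15 ± 0.08, limma adjusted p = 0.11). Cars2, for cysteine, stood at 393, 438 and 433 in knockout and at 391, 470.2 and 505 in control (-0.11 ± 0.10, limma adjusted p = 0.36). The groups overlapped in both genes. Both passed as lower under quantile normalization (-0.28 and -0.26), and Fars2 also without knockout library 2 (-0.22, limma adjusted p = 0.030).

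Lars2, the mitochondrial leucine enzyme, had the largest mean difference of any member and the largest spread. It stood at 2100.0, 3286 and 7538 normalised reads in knockout and at 2119, 1886 and 2054 in control (log2 fold change 0.89 ± 0.53, limma adjusted p = 0.22). Knockout library 1 lay within the control range, and knockout library 3 lay far above every other library. It took 47.1% of the mitochondrial synthetase signal in knockout library 3, against 19.7% in knockout library 1 and 21.0% to 23.1% in control. Without knockout library 3 the log2 fold change was 0.38 (limma adjusted p = 0.17). It was called higher by edgeR on recovered reads (edgeR adjusted p = 0.00032) and by limma without robust estimation (limma adjusted p = 0.0072).

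The 45S ribosomal RNA precursor gene Rn45s, which was looked up after the Lars2 values were seen, moved with it. Rn45s stood at 5126, 8256 and 16137 normalised reads in knockout and at 4806, 4245 and 4808 in control. The ratio of Rn45s to Lars2 was 2.44, 2.51 and 2.14 in the knockout libraries and 2.27, 2.25 and 2.34 in the control libraries, so it stayed between 2.14 and 2.51 while Lars2 itself spanned 1886 to 7538. The part of ribosomal RNA in the Lars2 values was not tested.

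**Figure D3:**
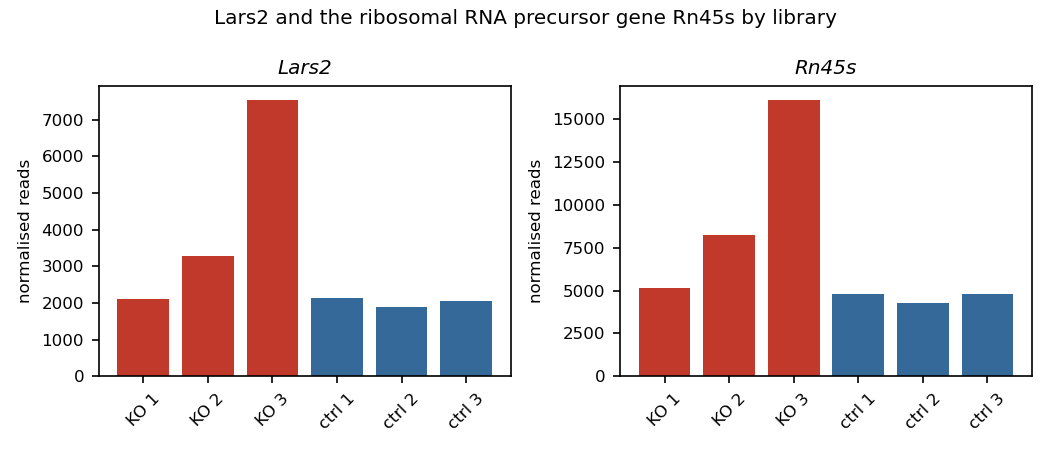
Normalised reads of Lars2 (left) and of the ribosomal RNA precursor gene Rn45s (right) in each library, knockout libraries left of control libraries. In both genes knockout library 3 is highest, at 7538 and 16137, knockout library 2 is next, and knockout library 1 is close to the controls.

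Of 18 cytosolic and mitochondrial pairs for the same amino acid, the log2 fold change of the cytosolic gene was the larger in 12 and that of the mitochondrial gene in 6, with the 12 including Mars and Mars2, which differed by 0.0022. The pairs share libraries, and Eprs, Fars2 and Tars2 enter 2 pairs each. The log2 ratio of the cytosolic to the mitochondrial gene within a library, taken on value + 1, depends on the size factor only through the added 1. This ratio did not overlap between the groups in 12 pairs, a share close to the 66.5% of single genes that did not overlap. It overlapped for Eprs/Ears2, Farsa/Fars2, Lars/Lars2, Mars/Mars2, Tars/Tars2 and Vars/Vars2. For Farsb over Fars2 it was 1.48 to 1.77 in knockout and 0.82 to 1.06 in control, and for Wars over Wars2 it was 2.74 to 2.86 in knockout and 2.21 to 2.62 in control, so that the cytosolic gene gained on the mitochondrial gene. For Yars over Yars2 it was 1.26 to 1.43 in knockout and 1.73 to 2.36 in control, and for Nars over Nars2 3.96 to 4.31 in knockout and 4.65 to 4.91 in control, so that the mitochondrial gene gained. For Mars and Mars2 the log2 fold changes were both 0.54, and the ratio overlapped between the groups (2.08 to 2.27 in knockout and 2.07 to 2.19 in control). With 3 libraries against 3 an exact permutation test of such a ratio cannot go below p = 0.1.

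**Figure D4:**
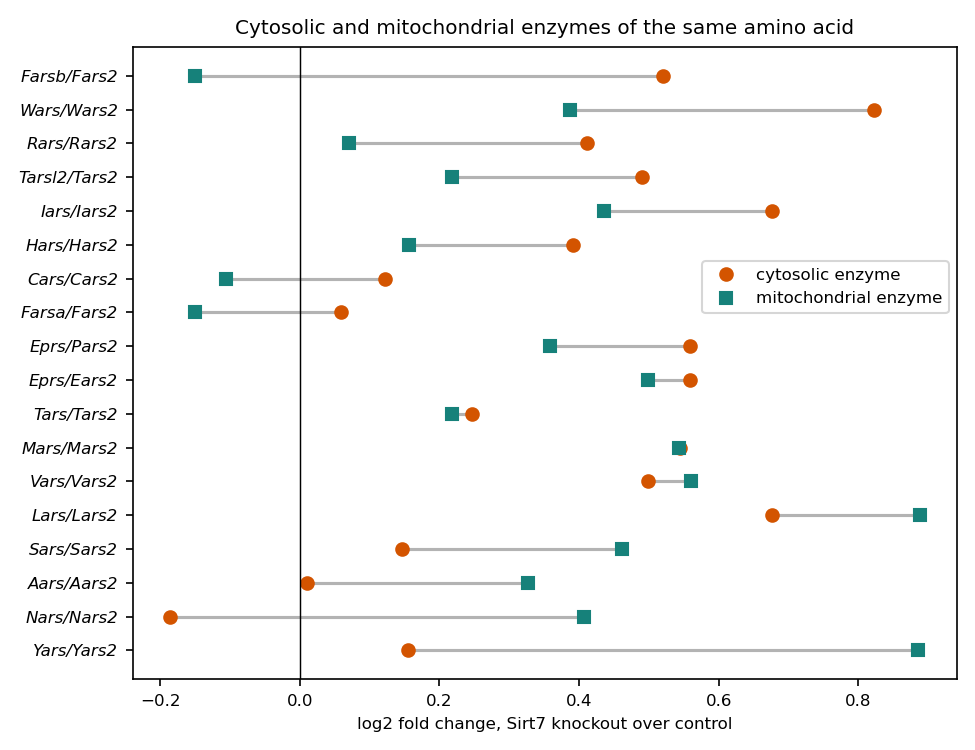
Log2 fold change, Sirt7 knockout over control, of the cytosolic gene (circle) and the mitochondrial gene (square) of each of 18 pairs, ordered by the difference. In the upper rows, such as Farsb/Fars2 and Wars/Wars2, the cytosolic gene changed more, and in the lowest rows, such as Yars/Yars2 and Nars/Nars2, the mitochondrial gene did.

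By catalytic fold, class I genes had the higher median, a difference that was not tested. Synthetases belong to class I or class II, which have unrelated catalytic domains, and Eprs holds a domain of each and was left out of this comparison. Of 18 class I genes 12 rose and 0 fell, with a median log2 fold change of 0.50. Of 18 class II genes 13 rose and 1 fell, with a median of 0.30. Among all tested genes 31.6% were called higher and 30.9% lower. The members that passed with a rise of over 1.5-fold were Wars, Iars, Lars and Yars2, all class I, which is 4 of 37 members, against 17.2% of all tested genes called higher by as much. The rises of the members were thus small beside those of many other genes, from 1.11-fold for Sars to 1.85-fold for Yars2.

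Per length, cytosolic synthetase transcripts were more abundant than mitochondrial ones in both groups. Levels were taken per kilobase of the annotated protein-coding transcript with the longest coding sequence. The median level of the cytosolic genes was 591 normalised reads in knockout and 478 in control. That of the mitochondrial genes was 196 in knockout and 163 in control. Nars had the highest level, 2058 per kilobase in knockout and 2342 in control, and Qars followed with 1682 in knockout and 1583 in control. The lowest levels were those of Mars2, at 20.5 per kilobase in knockout and 14.0 in control, and Tarsl2, at 36.6 in knockout and 26.1 in control. The low level of Mars2 rests on an annotated transcript of 11294 bases.

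Some members share exon bases with neighbours. Hars and Hars2 lie head to head on opposite strands and share 195 exon bases, 7.97% of those of Hars and 4.56% of those of Hars2. Of Iars2, 22.9% of exon bases overlap Rab3gap2 on the other strand, and of Aars, 14.3% overlap Exosc6 on the same strand. For every other member the largest such overlap was under 10% of its exon bases. No strand setting of the counting is given, so reads from these stretches cannot be assigned to a gene with certainty.

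Of 9 tested cytosolic charging partners of the synthetases 2 rose and 2 fell, shares of 22.2% each that lie below the 31.6% higher and 30.9% lower of all tested genes. Eef1e1, a scaffold protein of the multi-tRNA synthetase complex, stood at 484, 491 and 439 normalised reads in knockout and at 286, 251 and 238 in control (log2 fold change 0.87 ± 0.10, limma adjusted p = 1.19e-07). The other scaffold genes, Aimp1 (0.11 ± 0.06, limma adjusted p = 0.13) and Aimp2 (-0.03 ± 0.08, limma adjusted p = 0.80), did not pass although most synthetases they hold rose. Dtd1, which removes D-amino acids from tRNA, rose (0.57 ± 0.16), while Dtd2, a related deacylase, fell (-0.62 ± 0.14). Sepsecs, which completes selenocysteine on its tRNA, fell (-0.36 ± 0.06). Aarsd1, an editing factor for mischarged alanine tRNA, was too low to test.

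Of 12 tested genes that charge, mature or modify mitochondrial tRNA 9 rose (75%) and 0 fell, with a median log2 fold change of 0.39. With size factors, 31.6% of all tested genes were called higher and 30.9% lower. Elac2, which cuts the 3′ end of mitochondrial tRNA precursors, stood at 598, 558 and 592 normalised reads in knockout and at 317, 356 and 416 in control (0.69 ± 0.10, limma adjusted p = 1.63e-06). Trmt10c, a subunit of mitochondrial RNase P (0.52 ± 0.09), Gtpbp3, a wobble base modifying enzyme (0.58 ± 0.12), Pus1, a pseudouridine synthase (0.45 ± 0.08), and Trnt1, which adds the CCA end that is charged (0.37 ± 0.07), rose as well. Qrsl1 (0.11 ± 0.10), of the amidotransferase that makes mitochondrial glutamine tRNA, did not pass, while Gatc, another of its subunits, rose (0.27 ± 0.10). Under quantile normalization 5 of the 12 were called higher, with a median of 0.23, and Gatc no longer passed.

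Of 10 factors that act in translation on the mitochondrial ribosome 2 rose and 3 fell, near or below the 31.6% higher and 30.9% lower of all tested genes, with a median log2 fold change of -0.05. Tsfm, the exchange factor of mitochondrial elongation factor Tu, rose (0.32 ± 0.08, limma adjusted p = 0.0018), and so did the ribosome recycling factor Mrrf (0.29 ± 0.11, limma adjusted p = 0.033). Tufm, the elongation factor itself, stood at 3199 ± 128 in knockout and 3521 ± 170 in control (SD, n = 3 each) and fell (-0.14 ± 0.05, limma adjusted p = 0.016). The elongation factor Gfm1 (-0.17 ± 0.06) and the release factor Mtrf1l (-0.49 ± 0.13) fell too. Under quantile normalization 0 rose and 4 fell.

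In the Gcn2 and Atf4 list, 18 of 32 genes rose (56.2%) and 7 fell (21.9%). Over all tested genes, with size factors, 31.6% were called higher and 30.9% lower. The list had a median log2 fold change of 0.47, and its members changed in both directions. Eif2ak4, which encodes the sensor kinase Gcn2, stood at 370.1, 337 and 328 normalised reads in knockout and at 162, 169 and 226 in control (0.91 ± 0.13, limma adjusted p = 1.91e-06). Atf4 stood at 5370, 5540.1 and 5573 in knockout and at 7491, 7621 and 7358 in control (-0.45 ± 0.04, limma adjusted p = 1.09e-09). The groups did not overlap in either gene, and the kinase was higher and the factor lower in knockout. Atf4 is controlled largely through its translation, and transcript level alone was measured here.

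Several other transcription factors of the list fell too, and 1 transcriptional regulator rose. Nupr1, a small chromatin-associated stress regulator, averaged 685 ± 59.7 normalised reads in knockout and 256 ± 48.5 in control (SD, n = 3 each) and rose (log2 fold change 1.43 ± 0.11, limma adjusted p = 3.14e-10). Ddit3, also called Chop, stood at 584, 439 and 588 normalised reads in knockout and at 988, 945 and 839 in control (-0.79 ± 0.10, limma adjusted p = 1.03e-06). Atf5 (-0.53 ± 0.13), Cebpg, a partner of Atf4 (-0.30 ± 0.05), and Atf3 (-0.19 ± 0.07) fell, and Cebpb (-0.47 ± 0.28, limma adjusted p = 0.18) did not pass. Trib3, a pseudokinase induced by Atf4 and Ddit3, fell by 1.44 on the log2 scale. Ddit3 lies next to Mars, and their exons share 68 bases on opposite strands. Ddit3 fell and Mars rose, and the part of shared reads in these values was not tested.

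Slc7a5, the light chain of the large neutral amino acid transporter, stood at 529, 510.2 and 579 normalised reads in knockout and at 226, 225 and 182 in control (log2 fold change 1.35 ± 0.11, limma adjusted p = 1.79e-10). Its heavy chain Slc3a2, shared with other transporters, stood at 5128, 5363 and 5616 in knockout and at 9421, 9321 and 9410.0 in control, and so fell (-0.81 ± 0.04, limma adjusted p = 7.06e-14). Asparagine synthetase Asns, which makes the substrate of Nars, rose (0.51 ± 0.07, limma adjusted p = 2.20e-06), as did Phgdh (1.03 ± 0.10) and Psat1 (1.03 ± 0.11) of serine synthesis, Pycr1 of proline synthesis (1.92 ± 0.17), and the glycine transporter Slc6a9 (1.52 ± 0.12). The steepest rises were those of Vldlr, a lipoprotein receptor (2.67 ± 0.13), Stc2, a secreted glycoprotein (2.65 ± 0.16), and Gdf15, a stress cytokine (2.85 ± 0.59), which had 30.8 ± 9.68 normalised reads in knockout and 4.94 ± 5.92 in control (SD, n = 3 each). Gdf15 stood at 2.06, 11.8 and 1.01 in the control libraries and passed the filter on low values only through its knockout values. Its call of higher, counted among the genes of the list that rose, was thus all but fixed in advance. Under quantile normalization 19 genes of the list rose and 7 fell.

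**Figure D5:**
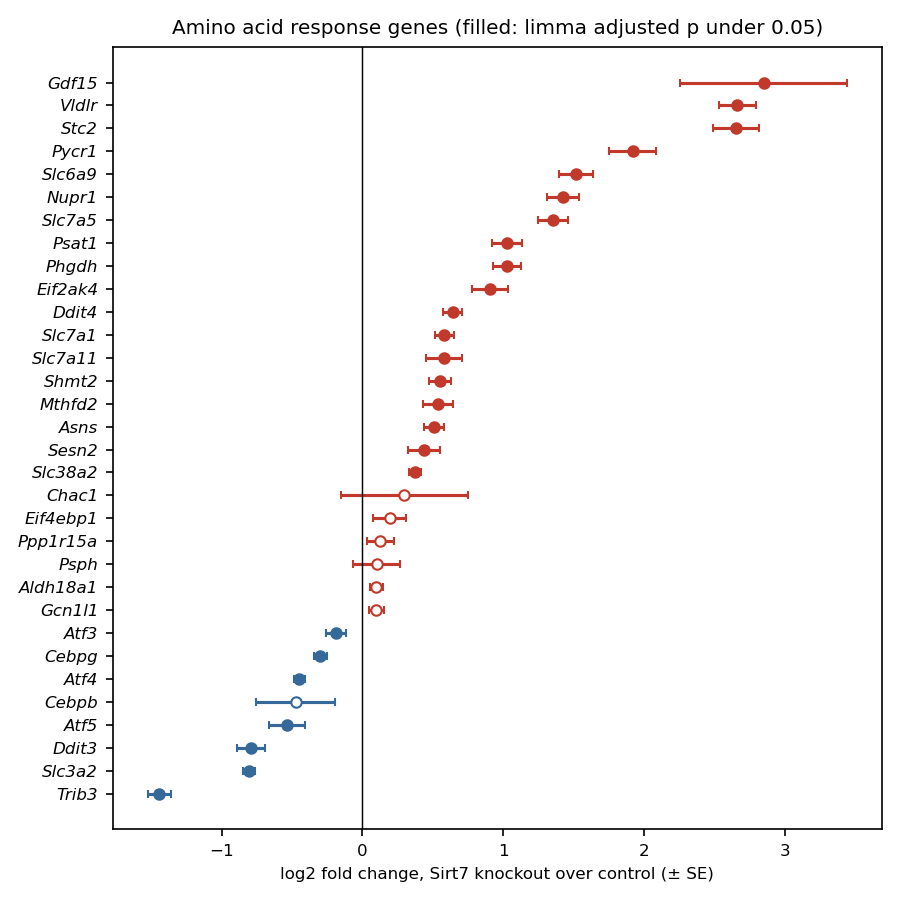
Log2 fold change with SE, Sirt7 knockout over control, of 32 genes of the Gcn2 and Atf4 amino acid response; filled points passed at a limma adjusted p under 0.05. Gdf15, Vldlr, Stc2 and Pycr1 lie farthest to the right, and Atf4, Ddit3, Atf5, Cebpg, Atf3, Trib3 and Slc3a2 lie to the left.

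Markers of several cell types moved between the groups in the same libraries as the synthetases, where 31.6% of all tested genes were called higher and 30.9% lower. The summed signal of 8 crypt and dividing cell genes was 17476 to 19017 normalised reads in knockout and 7778 to 8264 in control, with 8 of 8 higher. That of 16 pancreatic acinar genes was 3871 to 4717 in knockout and 528 to 574 in control, with 13 of 15 tested higher and 1 lower, the acinar transcription factor Bhlha15 (-0.66, limma adjusted p = 0.00094). Ptf1a, the acinar lineage factor, was not analysed here. Of the acinar genes Prss2, Cela3b and Cel were at 0 in at least 1 control library, and Rbpjl in libraries of both groups. That of 11 gastric genes was 22085 to 23582 in knockout and 32.2 to 42.3 in control, with 10 of 10 tested higher, and Lipf and Atp4b had no reads in any control library. Gkn1, Gkn2, Lipf, Muc5ac, Muc6, Tff2, Atp4a and Pgc were under 10 in every control library. So were the acinar genes Pnlip, Cpa1, Prss2, Try5, Cel, Cela2a, Cpb1 and Cela3b. These genes passed the filter only through their knockout values, so their calls of higher were all but fixed in advance. The same limit holds for Tff1, Ctrb1, Try4 and the crypt gene Ascl2, which reached 10 in some but not all control libraries. The B cell gene Pax5, at 0, 7.06 and 12.4 in knockout, passed only through its control values, so its call of lower was likewise all but fixed. The summed signal of 9 absorptive enterocyte genes was 717943 to 741827 in knockout and 1509470 to 1530990 in control, with 9 of 9 lower. The defining genes of intestinal epithelium were thus abundant in both groups. All 6 B cell genes and all 6 T cell genes were lower in knockout, with sums of 469 to 697 in knockout and 5619 to 6383 in control for B cells and of 946 to 1074 in knockout and 3186 to 3395 in control for T cells. Of 7 tested plasma cell genes 6 were lower and 1, Sdc1, higher (sum 12008 to 12550 in knockout and 11203 to 11942 in control). Most of this sum came from Xbp1 (mean 6446 in knockout and 7744 in control) and Sdc1 (4817 in knockout and 1774 in control). Among the genes that fell, Mzb1 averaged 196 in knockout and 817 in control, and Jchain 31.0 in knockout and 112 in control. Of 6 stroma and muscle genes 3 were higher and 3 lower (27052 to 28801 in knockout and 33782 to 36144 in control). The higher ones were Col1a1, Col1a2 and Pdgfrb, and the lower ones the muscle genes Myh11, Acta2 and Des. Col1a1 averaged 2171 in knockout and 643 in control, and Myh11 11126 in knockout and 17519 in control. The part of these shifts in the synthetase changes was not tested.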

How the data were processed

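Per the labels' protocols, Trizol was used for RNA and a TruSeq kit for the libraries. The submitters' processing notes name DESeq2, HTSeq 0.6.1p1, TopHat2 2.1.1, TopHat and FastQC, and the build mm10, without role, order or strand setting. The deposited table gives per library a signal value, that is reads scaled by the size factor of the library. Per the file headers it also holds the authors' mean signal, log2 fold change with SE, a Wald statistic (a score) and p-values, with the sign of the log2 values checked against the libraries. Of all values, 100% in each library were whole multiples of 1 step within 0.01, so reads were recovered. In 23 rows a date replaced the gene name, and these stayed unnamed.

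The 16600 genes that reached 10 or more in 3 or more libraries were tested with limma 3.58.1 (trend, robust, R 4.3.3) on log2(value + 1), which understates the change of low genes, with Benjamini-Hochberg adjustment over all tested genes. Fold changes are 2 to the power of the log2 fold change. The step was tested on simulated data. Alternatives were a replicate block, TMM and quantile scaling, other filters and pseudocounts, non-robust estimation, leaving out each library, and edgeR 4.0.16 and DESeq2 1.42.0 on recovered reads. Members, lists and promoter motifs were chosen with earlier results of these data known. Named genes are all members, leading genes of each list by p, and a few chosen after their values were seen (Rn45s, Aimp1, Aimp2, Aarsd1, Qrsl1, Gatc, Gtpbp3, Atf5, Cebpg, Atf3, Cebpb, Ddit3, Asns, Phgdh, Psat1, Pycr1, Gdf15, Nupr1, Bhlha15). Marker genes named for low values in a group were also chosen after their values were seen. Positions, transcript lengths and exon overlaps come from GENCODE M21 (GRCm38, equal to mm10), where all 37 members matched by symbol, and promoters are from RefSeq for GRCm38.p6. Without molecular identifiers, reads may repeat a molecule, so no counting interval is given. A gene of the matrix list and a promoter window are not reported here.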

Additional observations from a re-analysis of the deposited data

How the results depend on the processing

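Same-numbered libraries of the groups showed little shared deviation, with correlations of 0.00032, 0.036 and -0.0063. These values cannot show whether such libraries were paired by litter or handling, which the labels do not say. The fit with the replicate number as a block gave the same counts (15 cytosolic genes higher and 1 lower, 11 mitochondrial higher and 0 lower, median difference -0.0054) and a Sirt7 log2 fold change of -3.25. Quantile normalization moved the most: 0 cytosolic genes were lower, 6 mitochondrial were higher and 2 lower, and the cytosolic minus mitochondrial median was 0.15. It also turned Farsa to -0.020, Nars to 0.064 and Rars2 to -0.016. The median of all tested genes was 0.0097 with size factors, 0.028 with TMM and -0.047 with quantile normalization. Leaving out each library gave 15 to 15 cytosolic genes higher, 1 to 1 lower, 8 to 11 mitochondrial higher (8 without knockout replicate 1), 0 to 1 lower (1, Fars2, without knockout replicate 2), a median difference of -0.066 to 0.063 and a Sirt7 log2 fold change of -3.29 to -3.22. Aars lay between -0.028 and 0.038, and was negative without knockout replicate 3 (-0.028) and without control replicate 1 (-0.0023). With Lars2 left out, chosen after its values were seen, the median difference was 0.0052. With Tarsl2 counted as mitochondrial 14 cytosolic and 12 mitochondrial genes were higher, and with Gars and Kars left out 13 cytosolic genes were higher. At 75 reads and more per library, depth limits Tarsl2 and Pars2 the most.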
